A study of Mus musculus with 18 samples.

Results

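How inhibition of the kinase BTK changed the response of mature B cells to crosslinking of their receptor was measured as a difference between a pair of responses, gene by gene. All 18 of the 18 arrays of the series entered it. They held RNA of CD23+ B cells from the spleens of C57BL/6J mice in 4 groups: PBS after vehicle in 4 samples, Anti-IgD after vehicle in 4, PBS after PF-303 in 5 and Anti-IgD after PF-303 in 5. PF-303, a BTK inhibitor, or its vehicle was given 2 h before the antibody or PBS, and the cells were taken 2 h after the antibody. No group carries a genetic change according to the labels, and the labels do not say whether samples came from different mice. The p-values therefore rest on the scatter among the samples of a group, and that scatter could be technical. The response to anti-IgD was the difference of the mean log2(signal + 16) between antibody and PBS, and the interaction was the response in PF-303-treated mice minus that in vehicle-treated mice. An interaction of 1 therefore stands for a 2-fold ratio of the fold changes. Because 16 was added, the fold change of a dim gene understates the ratio of its signals.

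The receptor of mature follicular B cells is IgM and IgD on the surface together with the CD79A and CD79B chains. Its crosslinking activates the kinases LYN and SYK, and BTK, bound to the lipid product of PI3K, then activates phospholipase C gamma 2. The products of that enzyme release calcium, which acts through calcineurin on NFAT factors, and activate protein kinase C beta, which leads to NF-kB and to the RAS and MAPK cascade through RASGRP proteins. PI3K also activates AKT, which keeps FOXO factors out of the nucleus and so lowers the genes of resting cells. Of these branches, those through phospholipase C gamma 2 are the ones known for needing BTK, while SYK, PI3K and parts of the RAS cascade can also be reached without it.

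The arrays, Affymetrix Mouse Genome 430 2.0, give a MAS5 signal per probe set, an intensity set to a common level on each array (2%-trimmed mean of 99.96 to 99.97 on all 18). Signals therefore compare a gene with the rest of its own array. After a filter on low signals 11104 genes were tested, each by its probe set with the highest mean. Of the labelled cell type, all 7 follicular B-cell markers found on the array were above the filter, whereas Cd3d, Cd3e, Cd3g, Cd4, Cd8b1 and Thy1 of the 9 T-cell markers had a median signal below it. The summed signal of the T-cell markers was 539.5 to 579.3 in anti-IgD with vehicle and 1008.5 to 1533.2 over the other 3 groups, and that of the follicular B-cell markers 14237.1 to 16930.3 against 19931.3 to 37384.5. In bulk RNA, fewer cells of a type and less RNA per cell cannot be told apart. Spike-in control signals were more than 2 times their median on 6 arrays, none of them from anti-IgD with vehicle. The part of marker levels and of spike-in levels in the results was not tested, beyond the counts given without those 6 arrays.

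Promoter windows of genes whose response changed with the drug are shown first, since NF-kB genes are among those that rose less and lysosomal genes among those that rose more. The windows are RefSeq's for GRCm38.p6, 250 bases before to 50 after a transcript start, and 9036 of the 11104 genes had at least 1, with 11553 windows in all. Windows were searched on both strands for a CArG box, the element of serum response factor, and for an NF-kB site. Among the genes named by rule, those with the strongest smaller response and a site were Vegfa (chr17:46032328-46032627, minus strand), Maff (chr15:79348152-79348451, plus strand), Casp4 (chr9:5308599-5308898, plus strand) and Tnfaip3 (chr10:19015361-19015660, minus strand). Those with a larger response were Insig2 (chr1:121327629-121327928, minus strand) and Pdcd1lg2 (chr19:29410669-29410968, plus strand). Windows were picked for holding either element. The capitals mark the NF-kB sites, and no CArG box was found in these 6. Vegfa passed the filter on low signals only through anti-IgD with vehicle, with signals of 32.9, 23.3, 34.7 and 36.7, while all arrays of the other groups were below the filter level of 15.2, so that it had to differ, and its place here is a description. It was the 1 called gene of which this held. Both sites of Casp4 overlap.

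Vegfa: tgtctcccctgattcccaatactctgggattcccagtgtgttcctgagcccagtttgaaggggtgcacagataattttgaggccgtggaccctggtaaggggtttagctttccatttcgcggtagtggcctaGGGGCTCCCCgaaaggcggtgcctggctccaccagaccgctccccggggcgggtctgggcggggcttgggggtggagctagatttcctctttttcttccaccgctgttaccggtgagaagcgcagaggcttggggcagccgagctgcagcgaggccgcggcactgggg
Maff: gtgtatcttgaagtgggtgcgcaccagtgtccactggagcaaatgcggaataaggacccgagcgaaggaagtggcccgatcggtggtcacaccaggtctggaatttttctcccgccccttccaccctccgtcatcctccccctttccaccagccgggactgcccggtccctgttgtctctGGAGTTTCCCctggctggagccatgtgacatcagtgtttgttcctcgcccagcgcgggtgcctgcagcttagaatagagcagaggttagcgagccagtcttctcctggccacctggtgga
Casp4: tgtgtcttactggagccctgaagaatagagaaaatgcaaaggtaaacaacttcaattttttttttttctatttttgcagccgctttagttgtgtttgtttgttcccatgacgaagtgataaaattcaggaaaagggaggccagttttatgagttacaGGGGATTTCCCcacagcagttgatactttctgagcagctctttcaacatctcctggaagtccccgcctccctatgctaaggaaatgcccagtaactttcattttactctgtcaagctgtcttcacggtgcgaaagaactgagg
Tnfaip3: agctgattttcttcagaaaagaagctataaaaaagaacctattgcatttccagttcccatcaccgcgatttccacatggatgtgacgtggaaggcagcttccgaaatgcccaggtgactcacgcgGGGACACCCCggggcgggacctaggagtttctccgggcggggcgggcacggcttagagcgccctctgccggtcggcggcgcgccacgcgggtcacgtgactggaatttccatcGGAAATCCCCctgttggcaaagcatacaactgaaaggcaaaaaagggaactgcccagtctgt
Insig2: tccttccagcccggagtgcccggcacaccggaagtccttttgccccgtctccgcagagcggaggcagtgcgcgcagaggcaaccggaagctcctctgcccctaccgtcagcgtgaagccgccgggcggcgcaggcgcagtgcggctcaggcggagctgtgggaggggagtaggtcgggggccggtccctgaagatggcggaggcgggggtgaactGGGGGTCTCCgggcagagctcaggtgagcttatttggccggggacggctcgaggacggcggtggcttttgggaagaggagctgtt
Pdcd1lg2: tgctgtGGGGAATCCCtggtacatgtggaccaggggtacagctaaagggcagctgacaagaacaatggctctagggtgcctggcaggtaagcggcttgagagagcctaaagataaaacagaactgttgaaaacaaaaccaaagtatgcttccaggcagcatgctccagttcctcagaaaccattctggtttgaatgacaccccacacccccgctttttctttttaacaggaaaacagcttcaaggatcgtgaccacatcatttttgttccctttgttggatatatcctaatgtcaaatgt

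The windows of 3 lysosomal genes with a larger response, chosen after their values were seen, hold CACGTG, in capitals, the E-box read by MYC and by the factors TFEB and TFE3. They are Naglu (chr11:101069844-101070143, plus strand), Gnptg (chr17:25240091-25240390, minus strand) and Dpp7 (chr2:25356283-25356582, minus strand). The call of Gnptg was lost in 10 of the 18 fits that leave out 1 array (adjusted p up to 0.07).

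Naglu: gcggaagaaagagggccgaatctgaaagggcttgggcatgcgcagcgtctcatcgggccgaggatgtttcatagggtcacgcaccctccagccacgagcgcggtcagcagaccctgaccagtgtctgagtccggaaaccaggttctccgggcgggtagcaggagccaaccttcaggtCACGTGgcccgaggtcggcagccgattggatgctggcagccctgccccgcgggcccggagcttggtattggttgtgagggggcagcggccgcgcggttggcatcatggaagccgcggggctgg
Gnptg: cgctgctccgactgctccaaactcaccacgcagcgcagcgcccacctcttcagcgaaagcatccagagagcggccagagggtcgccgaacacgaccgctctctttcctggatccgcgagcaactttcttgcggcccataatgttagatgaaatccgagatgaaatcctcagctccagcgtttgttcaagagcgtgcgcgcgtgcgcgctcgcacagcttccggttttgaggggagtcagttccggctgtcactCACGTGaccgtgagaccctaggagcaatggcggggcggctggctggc
Dpp7: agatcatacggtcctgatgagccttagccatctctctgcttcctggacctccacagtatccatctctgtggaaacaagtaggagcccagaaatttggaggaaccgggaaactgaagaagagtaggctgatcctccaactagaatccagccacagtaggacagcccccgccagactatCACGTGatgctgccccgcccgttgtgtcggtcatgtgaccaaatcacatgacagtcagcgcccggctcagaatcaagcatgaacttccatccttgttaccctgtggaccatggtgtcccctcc

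Over all windows of tested genes an NF-kB site was found in 5.1%. The share was 6.25% of 320 windows for rises that were smaller with PF-303, 8.33% of 108 for larger responses and 23.5% of 34 for opposite ones, where the 8 windows came from 6 of 28 genes with a window. They were 2 each of BC028528 and Inf2 and 1 each of Hivep2, Lgals8, Lgmn and Psap. The windows of Icam1 and Gadd45b, described further on as NF-kB targets, and those of Pim1 held no such site. CACGTG lay in 10% of all windows, in 17.8% for smaller rises, 20.2% of 683 for rises alike in both, 5.31% of 1074 for falls alike in both, 10.2% of 668 for smaller falls and 24.1% for larger responses. On the lysosomal lists described further on, 29 of 111 windows held it (26.1%), and 10 of the 17 windows of those members with a larger response did (58.8%). A full cAMP response element was in 3.75% of the windows of smaller rises and 3.51% of like rises against 3.0% of all, and an AP-1 site, TGANTCA, in 3.75% and 4.25% against 5.08%. A CArG box was in 0.625% and 1.17% against 1.21%, an EGR site in 10.3% and 11% against 10.1%, and the NR4A element in 1.56% and 1.02% against 0.952%. These are counts of letters, with no test, and windows of 1 gene can overlap.

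The interaction passed the test in 1081 genes (9.74% of those tested, limma, adjusted p under 0.05), of which 736 (6.63%) had a higher and 345 (3.11%) a lower value. A higher value is a fall that was smaller, a rise that was larger or a fall that turned into a rise. Genes were then sorted by their calls. A response was smaller with PF-303 in 925 genes (8.33%): 601 falls and 324 rises. It was alike in 1646 genes (14.8%), 990 falls and 656 rises, meaning that both responses were called in one direction and the 95% interval of the interaction stayed within a 1.5-fold difference. That limit is wide for small responses: 1014 of the 1646 had a vehicle response under 1.5-fold, and in 177 the interval excluded 0, so a like response is not shown to be the same. It was larger in 114 genes (1.03%) and opposite, with both responses called, in 39 (0.351%). The larger class includes 77 genes called with PF-303 but not with vehicle, whatever the sign of the vehicle value. Of these, 39 had a vehicle value above 0, of which 9 fell with PF-303. The other 38 had one below 0, of which 35 rose with PF-303. A further 855 genes called in both had an interval too wide to be placed, and in 1816 genes called with vehicle alone the difference itself did not pass. The median standard error of an interaction was 0.17, which limits what could be called: 31 of the higher and 29 of the lower calls were 2-fold or more.

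Behind these classes stood 1926 rises (17.3%) and 3392 falls (30.5%) called with vehicle and 1634 rises (14.7%) and 2121 falls (19.1%) called with PF-303. The strongest rises kept their direction with the drug, though often not their size. All 48 genes that rose 4-fold or more with vehicle also rose with PF-303, and the median share of the log2 response left was 79.5% (quartiles 64.8% and 97.6%). Of these 48, the response was most often smaller, in 21, and it was alike in 11 and larger in 3. Of 344 rises between 2-fold and 4-fold, 322 were still called and 139 were smaller, with 66.1% left at the median. Of 395 falls in that range, 361 were still called and 208 were smaller, with 57.3% left. These genes were picked by the vehicle response, which by itself lowers the share left. Over all smaller responses of at least 0.5 on the log2 scale the median left was 45.0% for 295 rises and 37.0% for 524 falls. That class was picked by a called difference in the same arrays, which lowers these shares by itself.

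**Figure D1:**
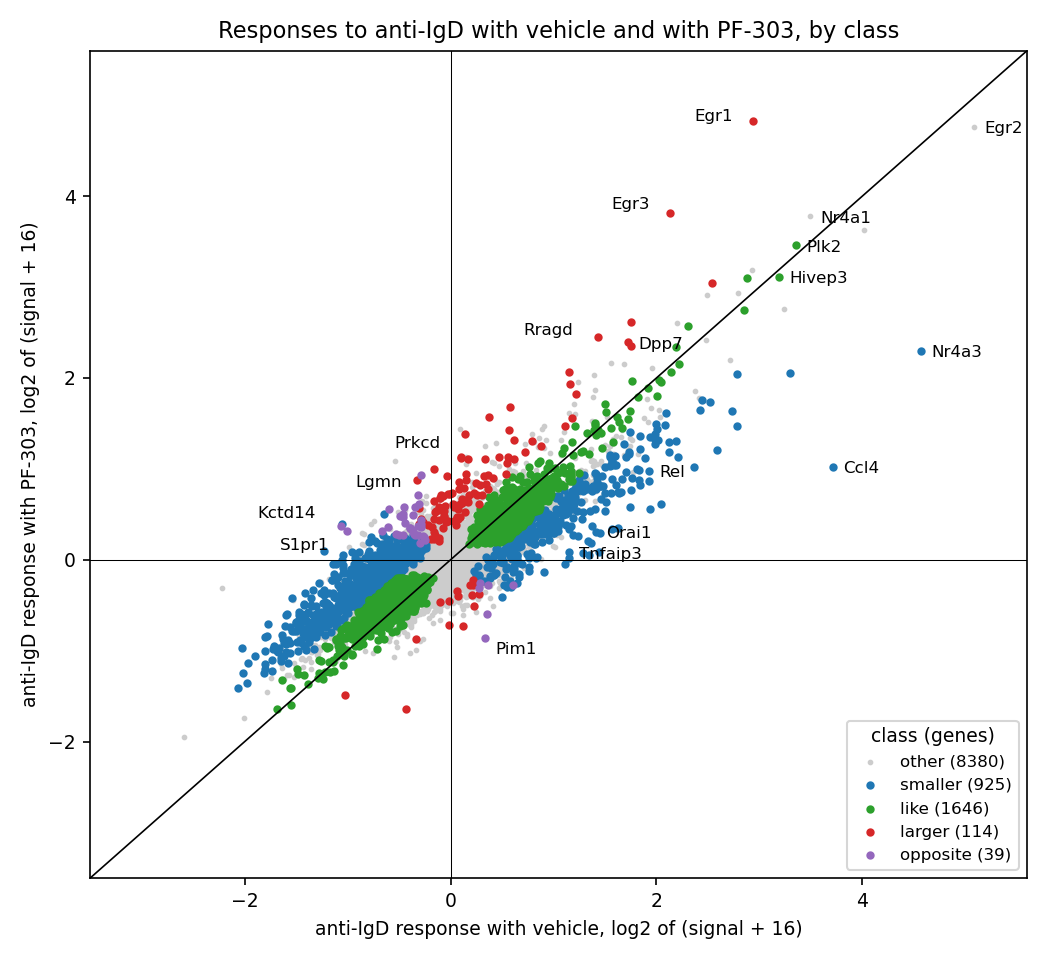
Each point is a gene, with its anti-IgD response in vehicle-treated mice on the x axis and in PF-303-treated mice on the y axis, both as log2(signal + 16); the line marks equal responses. Colours give the 925 smaller, 1646 like, 114 larger and 39 opposite responses, and grey the other genes. Most coloured points lie between the line and the x axis, and Egr1, Egr3 and Rragd lie above the line.

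Common to all results are 3 limits. The arrays differ by a shift: the median interaction of all genes was 0.07, and -0.05 after every array was moved to one median, so that the split of calls was 736 higher to 345 lower as deposited, 344 to 681 after that shift and 496 to 435 after quantile normalization. A letter in the array code of the labels, whose meaning they do not give, was spread unevenly over the groups. With it as a block 292 genes were called for the interaction, and no letter held all 4 groups, so no value within a letter exists. Without the 6 high spike-in arrays 716 genes were called. Of 38 gene lists examined, 32 had fewer called genes with the letter as a block, 23 without the 6 arrays and 11 after the shift, and 20 had more after the shift. A list is to be read against the 6.63% of all genes higher, 3.11% lower and 14.8% alike. Only a called response can be smaller or alike, so a list rich in called responses can exceed these shares for that reason alone. Of the 1926 rises called with vehicle 324 were smaller and 656 alike, and of the 3392 falls 601 and 990.

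Chemokine and NF-kB genes were among the lowest interactions. Ccl4, a chemokine that draws T cells, had the lowest interaction of all genes, -2.69 ± 0.26 (adjusted p = 3.9e-06). Its signals were 32.3, 32.8, 18.01 and 11.7 with PBS and 489.7, 422, 497 and 569 with anti-IgD in vehicle-treated mice. They were 26.1, 13.0, 45.7, 30.3 and 21.3 with PBS and 69.7, 68.5, 90.4, 63.2 and 58.0 with anti-IgD in PF-303-treated mice. Every stimulated array exceeded every PBS array, yet the stimulated level with PF-303 stayed far below that with vehicle, while the PBS groups overlapped. The response was 3.72 ± 0.20 with vehicle and 1.02 ± 0.18 with PF-303. The neighbouring chemokine gene Ccl3 had 2.58 with vehicle and 1.21 with PF-303, although its call and that of Maff were lost when 1 in place of 16 was added to the signal (adjusted p = 0.67 and 0.40).

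Rel encodes c-Rel, the NF-kB subunit most tied to B-cell activation. Rel signals were 173, 232, 209 and 209.8 with PBS and 818, 768, 876 and 839 with anti-IgD in vehicle-treated mice. They were 136, 136, 184, 159 and 152 with PBS and 329, 325, 330.3, 279 and 314 with anti-IgD in PF-303-treated mice. Arrays of anti-IgD with PF-303 lay between the PBS arrays and those of anti-IgD with vehicle, with no overlap. The interaction was -0.95 ± 0.13 (adjusted p = 8.3e-05), and the rise fell from 1.93 to 0.97. Tnfaip3 encodes A20, an inhibitor of NF-kB signalling, and had signals of 269.9, 270.0, 265 and 301 with PBS and 525, 604, 760.0 and 659 with anti-IgD in vehicle-treated mice. Its signals were 252, 206, 274, 272 and 188 with PBS and 240.3, 278, 284, 232 and 222 with anti-IgD in PF-303-treated mice. The vehicle rise of 1.15 ± 0.12 came to 0.08 ± 0.11 with PF-303, where the stimulated arrays overlapped both PBS groups (interaction -1.07 ± 0.16, adjusted p = 3.0e-04). The nuclear IkB proteins Nfkbiz (1.63 with vehicle and 0.35 with PF-303) and Nfkbid (1.76 with vehicle and 0.77 with PF-303) and the inhibitor Nfkbie (1.14 with vehicle and 0.71 with PF-303) also rose less, the call of Nfkbie being lost in 11 of the 18 fits that leave out 1 array (adjusted p up to 0.082). Nfkbid was already lower in PBS-treated mice with PF-303 (-1.23 ± 0.16), and its interaction was not called with the array letter as a block (adjusted p = 0.073).

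Of 15 subunits and IkB-type regulators tested, the interaction was lower in 5 and higher in 0 (limma, 1 higher at an unadjusted p under 0.05), and the median response was 0.48 with vehicle and 0.13 with PF-303, against -0.13 and -0.06 over all genes. The 5 are those just named. Relb, partner of the second NF-kB pathway, had 0.66 with vehicle and 0.35 with PF-303 with the difference not called, the adaptor gene Tnip2 rose alike, and Bcl3 fell alike (-1.28 with vehicle and -1.24 with PF-303). Among 19 NF-kB target genes 4 were lower for the interaction and 2 higher, with a median of 0.58 with vehicle and -0.01 with PF-303. Besides the chemokines the 4 were Bcl2l1, the survival gene of Bcl-xL (0.58 with vehicle and -0.23 with PF-303), and Icam1, described with the opposite responses. Irf4, a target that sets B-cell differentiation, rose alike, and Cd83, a surface protein of activated cells, had an interval too wide to place (1.69 with vehicle and 2.15 with PF-303). Mir155hg, the host transcript of miR-155 and outside these lists, went from 1.94 to 0.56.

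The calcium entry channel gene Orai1 also rose less. Orai1 signals were 189, 164, 216 and 210.0 with PBS and 483, 545, 553 and 595 with anti-IgD in vehicle-treated mice. They were 175, 171, 208, 164 and 157 with PBS and 208, 232, 253, 207 and 200.5 with anti-IgD in PF-303-treated mice. Every vehicle array with antibody exceeded all others, and the PF-303 arrays with antibody overlapped the PBS arrays. The interaction was -1.11 ± 0.13 (adjusted p = 2.4e-05). Of 20 calcium, calcineurin and NFAT genes 2 were lower (Orai1 and Nfat5) and 2 higher (Itpr3 and Orai3, both falls with vehicle that were not called with PF-303). The call of Nfat5 was lost in 8 of the 18 fits that leave out 1 array (adjusted p up to 0.081). Nfatc1 had 0.77 with vehicle and 0.42 with PF-303 with the difference not called, Orai2 and the calcineurin subunit Ppp3cc fell alike, and 5 of the 20 were alike in all.

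Surface proteins of activated B cells split. Gpr183, the oxysterol receptor that moves activated B cells to the outer follicle, had signals of 606, 545, 620.3 and 687 with PBS and 2169, 2433, 1939.5 and 2387 with anti-IgD in vehicle-treated mice. They were 614, 587, 629, 672 and 619.7 with PBS and 1122, 1135, 1231, 1238 and 1070.5 with anti-IgD in PF-303-treated mice. All stimulated arrays exceeded all PBS arrays, and the vehicle arrays exceeded the PF-303 arrays. The interaction was -0.96 ± 0.12 (adjusted p = 2.4e-05). Cd69, which holds cells in lymphoid tissue, rose by 1.38 and 0.38 (interaction -1.001 ± 0.21). Cd86, the ligand of CD28, had 1.92 with vehicle and 1.52 with PF-303, and its interaction of -0.40 ± 0.13 did not pass (adjusted p = 0.057), though it did after the shift to one median (adjusted p = 0.015). In contrast Pdcd1lg2, which encodes the PD-1 ligand PD-L2, rose more with the drug. Its signals were 108, 136, 102 and 118 with PBS and 375, 407, 479.9 and 455 with anti-IgD in vehicle-treated mice. They were 110.4, 107, 97.4, 86.0 and 101 with PBS and 524, 654, 672, 518 and 536 with anti-IgD in PF-303-treated mice. The arrays of anti-IgD with PF-303 were the highest, with no overlap, and the interaction was 0.60 ± 0.14 (adjusted p = 0.011), and the adjusted p was 0.12 with the array letter as a block. Of the 31 genes on this list 6 were higher and 5 lower for the interaction.

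Among immediate early genes calls ran in both directions. Egr1, Egr2 and Egr3 encode zinc finger factors induced through the MAPK cascade and calcium. Egr1 signals were 732, 672, 654 and 388 with PBS and 4758, 4676, 4379.6 and 4859.9 with anti-IgD in vehicle-treated mice. They were 116, 115, 87.9, 88.5 and 132 with PBS and 4271, 2676, 4140.3, 2990.4 and 3453 with anti-IgD in PF-303-treated mice. No groups overlapped: PF-303 lowered Egr1 in PBS-treated mice (-2.32 ± 0.16) and far less in stimulated ones (-0.43 ± 0.16). The fold response was therefore larger with the drug, 4.82 ± 0.15 against 2.94 ± 0.17, and the interaction of 1.88 ± 0.22 (adjusted p = 2.3e-05) was the highest among the genes called. In signal units the rise was instead smaller by 658 ± 337 with PF-303, so the sign of the Egr1 difference depends on the scale. Egr3 signals were 1090.4, 1078, 827 and 861 with PBS and 4235, 4978, 3274 and 4691 with anti-IgD in vehicle-treated mice. They were 217, 231, 194, 211 and 249.9 with PBS and 3956, 3419, 3855, 2257 and 3330.3 with anti-IgD in PF-303-treated mice. The stimulated arrays of both treatments overlapped, while the PBS arrays did not. Its interaction was 1.68 ± 0.20 and its rise in signal units was smaller by 188 ± 485, a difference within its error.

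Egr2 had the largest rise of all with vehicle, and a response with the drug that was not called different. Its signals were 69.3, 84.5, 59.8 and 37.2 with PBS and 2868, 2485, 2196 and 2846 with anti-IgD in vehicle-treated mice. They were 10.8, 14.9, 9.48, 8.57 and 14.9 with PBS and 691, 676, 751, 705 and 843 with anti-IgD in PF-303-treated mice. All 4 groups were apart, and PF-303 lowered Egr2 in PBS-treated mice with an effect of -1.48 ± 0.14 and in stimulated mice with one of -1.80 ± 0.14. The interaction was -0.32 ± 0.19 (adjusted p = 0.32), with an interval too wide to place the gene as alike. All PBS signals with PF-303 were below the 16 that was added, which understates that response. The sign of this value is therefore not settled. The orphan receptor Nr4a1, a common reporter of receptor signalling, followed Egr2: the fold responses were 3.49 ± 0.15 and 3.78 ± 0.13, but PF-303 lowered its level in both PBS-treated (-1.54 ± 0.14) and stimulated mice (-1.25 ± 0.14). The family member Nr4a3 had signals of 25.5, 33.7, 23.0 and 24.2 with PBS and 935, 832, 1090.3 and 1151 with anti-IgD in vehicle-treated mice. They were 5.70, 1.11, 20.6, 12.9 and 9.47 with PBS and 137, 102, 133, 70.5 and 108 with anti-IgD in PF-303-treated mice. Every stimulated array exceeded every PBS array, and the response dropped from 4.57 ± 0.19 to 2.298 ± 0.17 (interaction -2.28 ± 0.26, adjusted p = 1.6e-05, and 0.10 with 1 added in place of 16). Nr4a2 had 2.36 with vehicle and 1.02 with PF-303, so 2 of the 3 NR4A receptors tested were lower for the interaction.

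**Figure D2:**
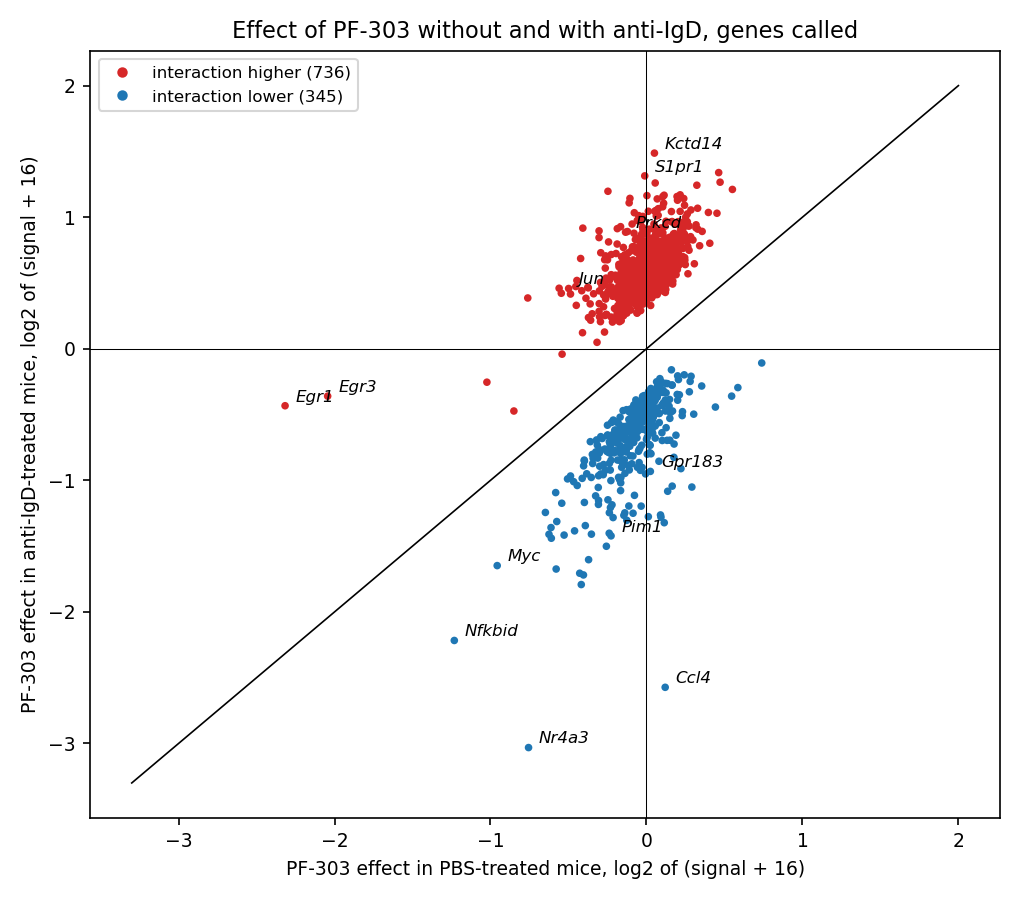
Each point is 1 of the 1081 genes called for the interaction, with the effect of PF-303 in PBS-treated mice on the x axis and in anti-IgD-treated mice on the y axis, both as log2(signal + 16). Points above the line of equal effects (red, 736) are higher and those below it (blue, 345) lower for the interaction, and most lie near 0 on the x axis. Egr1 and Egr3 stand apart at -2.32 and -2.04 on the x axis.

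The drug effect was called mostly in stimulated mice. PF-303 lowered 70 genes (0.63%) and raised 7 (0.063%) in PBS-treated mice, against 1146 lowered (10.3%) and 2195 raised (19.8%) in anti-IgD-treated mice. Of the 324 smaller rises 20 were lower with PF-303 in PBS-treated mice, of the 656 like rises 25, and of the 99 larger rises 7. Jun, the AP-1 subunit, was in the last group, with signals of 262, 269, 185 and 199 with PBS and 236, 177, 255 and 220.1 with anti-IgD in vehicle-treated mice. They were 156, 156, 141, 151 and 172 with PBS and 286, 312, 298, 329 and 318 with anti-IgD in PF-303-treated mice. The rise was called with PF-303 and not with vehicle (-0.04 with vehicle and 0.92 with PF-303), from a PBS level that was itself lower (-0.50 ± 0.11). The arrays of anti-IgD with PF-303 were above all others, those of PBS with PF-303 below all others, and the vehicle groups overlapped. Fos, its partner, had a wide error (interaction 0.72 ± 0.54). The small MAF proteins Maff (3.29 with vehicle and 2.05 with PF-303) and Mafk (1.55 with vehicle and 1.13 with PF-303, the call lost in 4 of the 18 fits that leave out 1 array (adjusted p up to 0.078)) rose less, whereas Mafg (1.51 with vehicle and 1.63 with PF-303) and the bZIP factor Cebpb (0.63 with vehicle and 0.53 with PF-303) rose alike. Of 16 AP-1 and related factors 1 was higher and 3 lower for the interaction.

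Myc, the factor that drives growth genes, had signals of 462, 457, 497 and 679.6 with PBS and 2904, 2923, 2688 and 3016 with anti-IgD in vehicle-treated mice. They were 284, 278, 265, 228 and 240.2 with PBS and 1272, 885, 914, 791 and 759 with anti-IgD in PF-303-treated mice. The 4 groups were apart, and both PBS and stimulated levels were lower with PF-303 (-0.96 ± 0.13 and -1.65 ± 0.13). Its rise went from 2.44 to 1.75, an interaction of -0.69 ± 0.18 (adjusted p = 0.017, and 0.13 with the array letter as a block). The histone demethylase gene Kdm6b followed with 2.73 with vehicle and 1.63 with PF-303. On the list of 25 other immediate early genes, 9 were alike, 3 were lower (Myc, Kdm6b and Gadd45b) and 1 higher for the interaction. The higher one was Klf6 (-0.65 with vehicle and -0.08 with PF-303). On the list of MAPK phosphatases, feedback genes and targets 5 of 16 were higher and 1 lower (4 and 1 after the shift to one median, 2 and 0 with the array letter as a block), while the median interaction was -0.06, with responses smaller in 4 and larger in 2. Plaur, the urokinase receptor gene and a target of the cascade, rose more (0.56 with vehicle and 1.42 with PF-303), and Dusp10 rose with PF-303 alone (-0.08 with vehicle and 0.70 with PF-303). Dusp6 fell with vehicle alone (-0.60 with vehicle and 0.22 with PF-303, interaction 0.82). Rasa3 fell less in fold (-1.81 with vehicle and -1.24 with PF-303, interaction 0.57). In signal units Rasa3 changed by -989 with vehicle and -962 with PF-303, a difference of 27 ± 106 that is within its error. The phosphatase gene Dusp2 was the lower one (1.69 with vehicle and 1.27 with PF-303), with its call lost in 5 of the 18 fits that leave out 1 array (adjusted p up to 0.07), while Dusp4 and Spred2 rose alike.

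Growth genes rose in both treatments, and part of them less with the drug. Of 61 ribosome biogenesis genes 56 rose with vehicle and 56 with PF-303, and the median response was 1.11 and 0.75. The level with PF-303 was called lower in 8 of them in PBS-treated and in 52 in stimulated mice (all genes 0.63% and 10.3%). The interaction was lower in 20 and higher in 0 (limma, 0 higher at an unadjusted p under 0.05), 15 were alike and 20 could not be placed. Ftsj3, a methyltransferase of pre-rRNA processing, had the lowest interaction of the list and signals of 247, 231, 167 and 187 with PBS and 712, 609.9, 719 and 653 with anti-IgD in vehicle-treated mice. They were 180.3, 196, 144, 154 and 184 with PBS and 247, 333, 245, 302.7 and 363 with anti-IgD in PF-303-treated mice. With the drug the stimulated arrays lay below all stimulated vehicle arrays and above the PBS arrays of their own treatment, and the lowest of them overlapped the highest vehicle PBS array. Its response was 1.64 ± 0.13 and 0.73 ± 0.12 (interaction -0.90 ± 0.17, adjusted p = 0.0021, and 0.072 with the array letter as a block). Gnl2, Rrp1b and Pwp1, all nucleolar, came next (-0.62, -0.60 and -0.59). Ncl, which encodes nucleolin, rose alike at 0.76 and 0.76, as did Bop1 (0.81 and 0.76). After the shift to one median 31 of the list were lower, and with the array letter as a block 7.

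Nutrient supply followed. Of 20 genes for amino acid transport, polyamines and iron uptake 6 were lower for the interaction and 0 higher (limma, 2 higher at an unadjusted p under 0.05), with medians of 0.61 and 0.26. They include the transferrin receptor gene Tfrc (1.89 with vehicle and 1.12 with PF-303) and the arginine transporter gene Slc7a1 (1.84 with vehicle and 1.22 with PF-303). In glycolysis 3 of 17 were lower: Hk2, the inducible hexokinase (2.21 with vehicle and 1.13 with PF-303), the lactate transporter gene Slc16a1 (2.52 with vehicle and 1.74 with PF-303) and Pgam1 (1.14 with vehicle and 0.64 with PF-303), while the glucose transporter gene Slc2a3 rose alike (0.56 with vehicle and 0.59 with PF-303) and Hk1 fell alike. In nucleotide and one-carbon synthesis 4 of 28 were lower, led by the mitochondrial folate enzyme gene Mthfd2 (1.5 with vehicle and 0.54 with PF-303), and 9 were alike, among them Cad and Atic of pyrimidine and purine synthesis. Translation factors had 5 of 42 lower, among them the cap-binding protein gene Eif4e (1.09 with vehicle and 0.60 with PF-303), and 8 alike. Of 32 tRNA synthetases 6 were lower and 2 higher (10 and 0 after the shift to one median, 2 and 0 without the 6 high spike-in arrays). Iars was lowest (1.29 with vehicle and 0.53 with PF-303), and Sars and Yars rose alike. Few differences were called among 25 RNA polymerase subunits, 2 lower and 1 higher, and 39 nucleoporins and transport receptors, 2 lower. After the shift to one median 6 and 8 were lower.

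**Figure D3:**
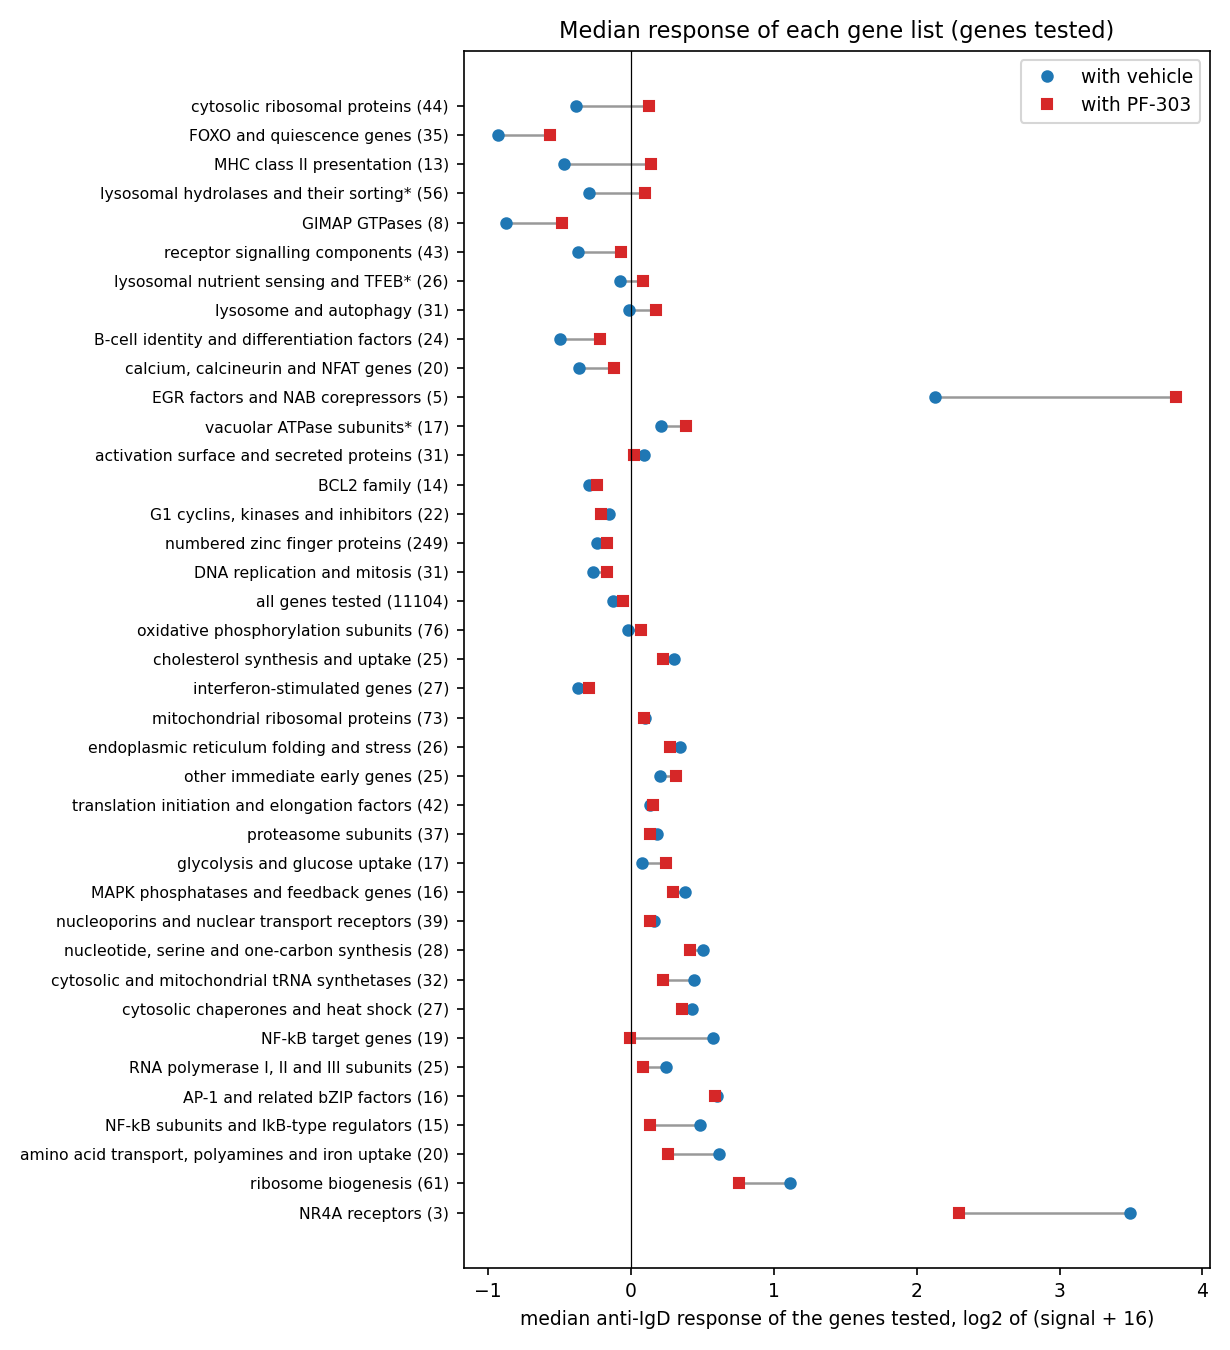
Each row is a gene list with the number of its genes tested, and the symbols give the median anti-IgD response of those genes, log2(signal + 16), with vehicle (circle) and with PF-303 (square). An asterisk marks lists written after the values were seen. Ribosome biogenesis moves from 1.11 to 0.75 and the FOXO and quiescence genes from -0.93 to -0.57, while chaperones lie at 0.43 and 0.36.

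On the deposited scaling the commonest of the called differences was a fall that was smaller, in 601 of 1081 genes. This ranking depends on the scaling, since after the shift to one median 344 calls were higher and 681 lower. Among 35 FOXO and quiescence genes, which mark resting lymphocytes, 29 fell with vehicle and 23 with PF-303, with medians of -0.93 and -0.57 (all genes -0.13 and -0.06). The interaction was higher in 18 and lower in 1, and 16 of the responses were smaller. Cdkn1b, which encodes the cell-cycle inhibitor p27, had signals of 1052, 1010.0, 854 and 1041 with PBS and 326, 371, 277 and 292 with anti-IgD in vehicle-treated mice. They were 1159, 1031, 938, 1082 and 1005 with PBS and 665, 685, 687, 730.2 and 616 with anti-IgD in PF-303-treated mice. The PBS groups overlapped, and the arrays of anti-IgD with PF-303 lay between them and those with vehicle. Its response was -1.60 ± 0.09 and -0.61 ± 0.08 (interaction 0.99 ± 0.12, adjusted p = 4.2e-05). Klf2, a factor of quiescence and recirculation, had -1.48 with vehicle and -0.68 with PF-303, and Ets1, which restrains B-cell differentiation, had -1.15 with vehicle and -0.22 with PF-303. On the linear signal the call of Klf2 was lost. Foxo1 itself went from -0.82 to -0.29, a call lost in 5 of the 18 fits that leave out 1 array (adjusted p up to 0.064), and Txnip, a brake on glucose uptake, from -1.47 to -0.58. Not all members moved so: Bcl6, Mxi1 and Tob1 fell alike, and Trib2 and Irs2 rose alike (2.88 and 3.10 for Irs2). The 1 lower value was that of Slfn2, which fell more (-0.34 with vehicle and -0.88 with PF-303). The count of higher genes was 11 both after the shift to one median and with the array letter as a block.

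Components of receptor signalling were among the smaller falls. Of 43 tested, 25 fell and 5 rose with vehicle, 10 fell and 12 rose with PF-303, and the interaction was higher in 13 and lower in 0 (limma, 1 lower at an unadjusted p under 0.05; 7 higher after the shift to one median and 2 with the array letter as a block). Dok3, an inhibitory adaptor, had signals of 524, 401, 652 and 724 with PBS and 297, 292, 260.2 and 279.7 with anti-IgD in vehicle-treated mice. They were 551, 479, 589, 520.0 and 497 with PBS and 587, 527, 576, 632 and 483 with anti-IgD in PF-303-treated mice. With PF-303 the stimulated and PBS arrays overlapped, whereas with vehicle they did not. The interaction was 1.04 ± 0.17 (adjusted p = 7.2e-04). Rasgrp3, which loads RAS, went from -1.15 to -0.22, and the inhibitory receptor gene Cd22 from -0.80 to 0.01. Plcg2 (-0.67 with vehicle and -0.08 with PF-303) and Syk (-1.56 with vehicle and -1.03 with PF-303) fell less as well. Btk, the target of the drug, had -0.53 ± 0.07 with vehicle and -0.10 ± 0.07 with PF-303 (interaction 0.43 ± 0.10, adjusted p = 0.009). That call was lost after the shift to one median (0.061) and with the array letter as a block (0.083). The receptor chain gene Cd79a had an interaction of 1.13 ± 0.46 that did not pass (adjusted p = 0.13). Grb2 and Cd72 rose alike, and Fyn rose alike at 2.00 and 1.80. The lower sum of follicular B-cell markers in anti-IgD with vehicle stands beside these values.

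The interaction was higher in 3 of 8 GIMAP GTPases, small GTPases of lymphocyte survival, of which 8 fell with vehicle and 7 with PF-303 (medians -0.88 and -0.48). It was higher in 1 after the shift to one median and in 0 with the array letter as a block, and the call of Gimap8 was lost in 13 of the 18 fits that leave out 1 array (adjusted p up to 0.092). The summed T-cell markers were lowest in anti-IgD with vehicle too, and their part was not tested. Gimap7 had -1.62 with vehicle and -1.06 with PF-303, and Gimap5 and Gimap6 fell alike. B-cell identity factors had 5 of 24 higher and 1 lower for the interaction, and 2 of each after the shift to one median. The lower one was Tbx21, which encodes T-bet and rose less (2.12 with vehicle and 1.19 with PF-303).

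Responses placed as alike included strong inductions. Plk2, a kinase of the stress response, had the largest like rise, with signals of 15.8, 16.4, 13.8 and 8.88 with PBS and 289, 226, 344 and 299 with anti-IgD in vehicle-treated mice. They were 25.4, 15.7, 27.4, 8.92 and 19.9 with PBS and 348, 446, 399, 299 and 359 with anti-IgD in PF-303-treated mice. PBS groups overlapped each other, as did stimulated groups, and the responses were 3.35 ± 0.16 and 3.46 ± 0.14 (interaction 0.11 ± 0.21). Irf4 signals were 496, 405, 503 and 615 with PBS and 2178, 2063, 2288 and 2544 with anti-IgD in vehicle-treated mice. They were 407, 399, 373, 308 and 366 with PBS and 1948, 1580.1, 1706, 1543 and 1294 with anti-IgD in PF-303-treated mice. Here the stimulated arrays were lower with PF-303 with no overlap, and the effect in PBS-treated mice was -0.42 ± 0.12 (adjusted p = 0.10). The responses of 2.14 ± 0.12 and 2.07 ± 0.11 were alike (interaction -0.07 ± 0.16). Like in fold is therefore not like in level.

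Hivep3, a zinc finger factor that binds NF-kB-type sites and also alike in fold, had signals of 249.9, 247, 259 and 138 with PBS and 2113, 1844, 2195 and 2312 with anti-IgD in vehicle-treated mice. They were 76.9, 104, 86.5, 80.6 and 105 with PBS and 755, 879.7, 909, 969 and 997 with anti-IgD in PF-303-treated mice. All 4 groups were apart, with PF-303 effects of -1.14 ± 0.14 with PBS and -1.22 ± 0.14 with anti-IgD, and responses of 3.19 and 3.11. In signal units its rise was smaller by 1081 ± 112. The receptor gene Ahr (2.85 with vehicle and 2.75 with PF-303) and the adaptor gene Samsn1 (2.31 with vehicle and 2.57 with PF-303) were also lower with PF-303 in PBS-treated mice, with effects of -0.69 ± 0.10 and -0.57 ± 0.08. The 95% interval of the Samsn1 interaction, 0.04 to 0.49, excluded 0. Rgs1, a brake on chemokine receptors, rose alike (2.21 with vehicle and 2.15 with PF-303).

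Of 27 cytosolic chaperones 0 were called for the interaction (limma, 0 higher and 5 lower at an unadjusted p under 0.05), with 22 rising with vehicle, 20 with PF-303 and medians of 0.43 and 0.36. The rule placed 19 as alike, but 12 of these had a vehicle response under 1.5-fold, and in 4 the interval excluded 0. After the shift to one median 4 were lower. Hsp90aa1 (0.43 with vehicle and 0.44 with PF-303) and Dnaja1 (0.56 with vehicle and 0.53 with PF-303) were named for their small differences and do not stand for the list. Its median interaction was -0.095, and 13 of its genes were called lower with PF-303 in stimulated mice. Of 26 genes of folding and stress in the endoplasmic reticulum 10 were alike, among them Hspa5, which encodes BiP (0.62 with vehicle and 0.63 with PF-303), and 1 each was higher (Pdia4) and lower (Dnajb9, a call lost in 9 of the 18 fits that leave out 1 array (adjusted p up to 0.077)). Of 27 interferon-stimulated genes 13 fell in each treatment and 9 were alike, such as Ifit3 (-0.65 with vehicle and -0.67 with PF-303) and Rtp4 (-0.50 with vehicle and -0.50 with PF-303). The 1 called for the interaction was Ddx58, lost after the shift to one median and in 14 of the 18 fits that leave out 1 array (adjusted p up to 0.11). Of 25 genes of cholesterol and fatty acid synthesis 3 were higher and 1 lower, and the fatty acid synthase gene Fasn rose alike (1.43 with vehicle and 1.43 with PF-303). Of 249 numbered zinc finger genes 68 fell with PF-303 and 92 with vehicle, 34 were alike, 9 were higher and 4 lower, and 4 were higher and 12 lower after the shift to one median, so that the balance depends on the scaling. Of 73 mitochondrial ribosomal proteins 13 were alike and 2 each were higher and lower (1 and 6 after the shift).

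Of the 114 larger responses 11 were of lysosomal hydrolase and sorting genes. The lysosome degrades endocytosed and autophagic cargo with acid hydrolases, and its genes are partly controlled by TFEB. On the list of 31 lysosome and autophagy genes the interaction was higher in 9 and lower in 0 (limma, 1 lower at an unadjusted p under 0.05), with 5 responses larger and 4 smaller. After the shift to one median 4 were higher, without the 6 high spike-in arrays 3, and with the array letter as a block 1. Since that count was seen first, 3 wider lists were then written from the known families. Of 56 hydrolases and sorting factors 26 were higher and 1 lower for the interaction, of 26 genes of lysosomal nutrient sensing and TFEB 7 were higher (3 after the shift to one median), and of 17 subunits of the proton pump, the vacuolar ATPase, 0 were called (limma, 3 higher and 0 lower at an unadjusted p under 0.05). Of the hydrolases 8 rose and 27 fell with vehicle, against 22 and 12 with PF-303, with medians of -0.29 and 0.10 (interaction 0.42). After the shift 14 of the hydrolases were higher, without the 6 high spike-in arrays 12, and with the array letter as a block 4, with a median interaction of 0.29, 0.37 and 0.41. As these lists were written after values were seen, their counts are a description.

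Hexa encodes the alpha subunit of beta-hexosaminidase, and its signals were 769, 905, 762 and 665 with PBS and 1146, 1147, 1245 and 1233 with anti-IgD in vehicle-treated mice. They were 776, 837, 852, 784 and 746 with PBS and 2015, 2132, 2201, 1776 and 1929 with anti-IgD in PF-303-treated mice. PBS groups overlapped, and each array of anti-IgD with PF-303 exceeded each with vehicle. The responses were 0.62 ± 0.09 and 1.31 ± 0.08 (interaction 0.69 ± 0.12, adjusted p = 9.7e-04). Dpp7, a lysosomal dipeptidase gene whose window is printed with the promoters, had signals of 253, 219, 213 and 183 with PBS and 732, 645, 893 and 753 with anti-IgD in vehicle-treated mice. They were 183, 194, 158, 154 and 203 with PBS and 853, 1224, 1038, 849.6 and 1077 with anti-IgD in PF-303-treated mice. Its responses were 1.73 ± 0.12 and 2.39 ± 0.11 (interaction 0.67 ± 0.16), with an overlap of the stimulated groups. Rragd, a GTPase gene that brings mTORC1 to lysosomes and a known TFEB target, had signals of 18.04, 19.3, 17.0 and 22.2 with PBS and 85.2, 58.9, 81.9 and 93.4 with anti-IgD in vehicle-treated mice. They were 17.0, 17.96, 22.8, 11.8 and 12.8 with PBS and 188, 167, 144, 153 and 152 with anti-IgD in PF-303-treated mice. Its stimulated groups did not overlap, and the interaction was 1.01 ± 0.18 (adjusted p = 0.0012). With the array letter as a block the adjusted p was 0.062, 0.050 and 0.092 for the 3 genes.

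Naglu, a hydrolase gene of heparan sulfate breakdown, had no response with vehicle that passed, and signals of 118, 84.4, 114 and 115 with PBS and 89.6, 121, 113 and 105 with anti-IgD in vehicle-treated mice. They were 97.0, 74.3, 97.4, 103 and 91.2 with PBS and 217, 134, 155, 175 and 142 with anti-IgD in PF-303-treated mice. Each stimulated array with PF-303 exceeded all other arrays, with responses of -0.01 ± 0.13 and 0.72 ± 0.12 (interaction 0.73 ± 0.18, adjusted p = 0.012, 0.081 without the 6 high spike-in arrays and 0.14 with the array letter as a block). Fuca2 (0.01 with vehicle and 0.74 with PF-303), Ctsa (0.14 with vehicle and 0.66 with PF-303), Gusb (0.03 with vehicle and 0.43 with PF-303) and Neu1 (0.06 with vehicle and 0.47 with PF-303) had the same form, as did the calcium channel gene Mcoln1 (-0.07 with vehicle and 0.35 with PF-303). For Gusb, Neu1 and Mcoln1 the call was lost in 13, 14 and 11 of the 18 fits that leave out 1 array (adjusted p up to 0.10, 0.10 and 0.085). The proteases and glycosidases Tpp1 (0.37 with vehicle and 0.93 with PF-303) and Gaa (0.35 with vehicle and 0.83 with PF-303) rose in both and more with PF-303. Lgmn and Psap turned from a fall to a rise. Others fell less, such as Npc1 (-0.91 with vehicle and -0.15 with PF-303), Lipa (-0.81 with vehicle and -0.27 with PF-303) and Sgsh (-0.93 with vehicle and -0.31 with PF-303), and so did Tfeb itself (-0.98 with vehicle and -0.14 with PF-303). The 1 lower gene was the mannose 6-phosphate receptor gene M6pr (0.95 with vehicle and 0.49 with PF-303), whereas the other receptor, Igf2r, rose more (1.11 with vehicle and 1.47 with PF-303), with an adjusted p of 0.056 without replicate 2 of anti-IgD with vehicle. The calls of Gusb, Neu1, Mcoln1, Gaa and Igf2r were lost after the shift to one median.

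**Figure D4:**
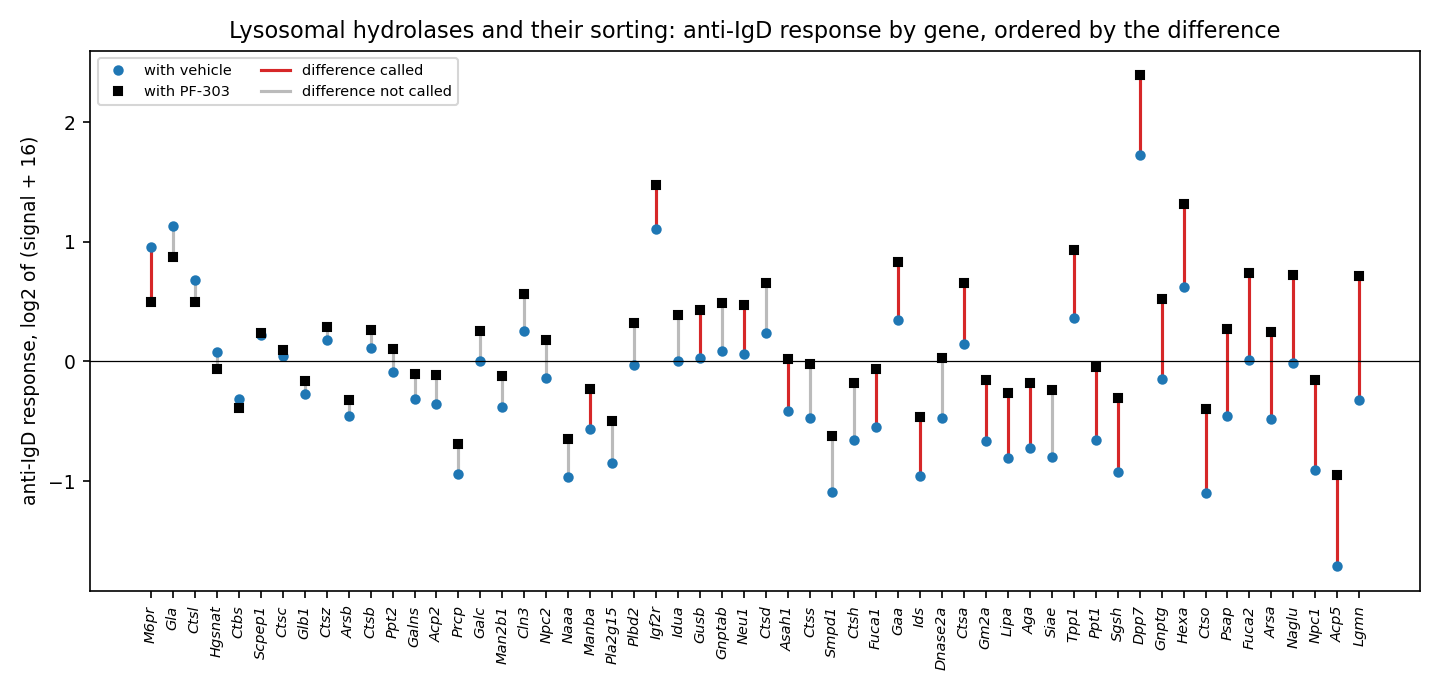
The anti-IgD response, log2(signal + 16), of each of the 56 lysosomal hydrolase and sorting genes tested, with vehicle (circle) and PF-303 (square), ordered by the difference. Red lines mark the 27 genes whose difference was called; in 26 of them the square lies above the circle, and in M6pr below.

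Of all 114 larger responses 77 had no call with vehicle. Prkcd, a protein kinase C gene tied to B-cell tolerance, had signals of 654, 582, 721 and 866 with PBS and 749, 701, 749 and 804 with anti-IgD in vehicle-treated mice. They were 645, 567, 739, 637 and 599 with PBS and 1820.2, 1312, 1553, 1304 and 1105 with anti-IgD in PF-303-treated mice. The other 3 groups overlapped, and the arrays of anti-IgD with PF-303 lay above all of them. The interaction was 1.02 ± 0.17 (adjusted p = 8.7e-04, and 0.056 with the array letter as a block). Pik3ip1, an inhibitor of PI3K, showed the same with signals of 258, 213, 185 and 233 with PBS and 263, 209, 307 and 187 with anti-IgD in vehicle-treated mice. They were 181, 189, 268, 253 and 204 with PBS and 511, 535, 482, 495 and 444 with anti-IgD in PF-303-treated mice. Its responses were 0.10 ± 0.14 and 1.13 ± 0.12 (interaction 1.03 ± 0.18, adjusted p = 0.0012). Gnpda1, an enzyme of hexosamine breakdown (0.14 with vehicle and 1.39 with PF-303), Adi1 of methionine salvage (-0.16 with vehicle and 1.003 with PF-303), Ryr1 (0.15 with vehicle and 0.95 with PF-303) and the signalling genes Ptpn6 (-0.16 with vehicle and 0.45 with PF-303) and Tec (0.09 with vehicle and 0.62 with PF-303) belonged here too. Of rises called in both, Rell1 had 0.37 with vehicle and 1.57 with PF-303 and Tgfb3 1.76 with vehicle and 2.61 with PF-303. Falls made up 15 of the larger responses, among them Sgk1, a kinase gene (-0.43 with vehicle and -1.64 with PF-303), and Bcl2l11, which encodes the death factor BIM (0.27 with vehicle and -0.38 with PF-303). The call of Bcl2l11 was lost in 9 of the 18 fits that leave out 1 array (adjusted p up to 0.077).

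**Figure D5:**
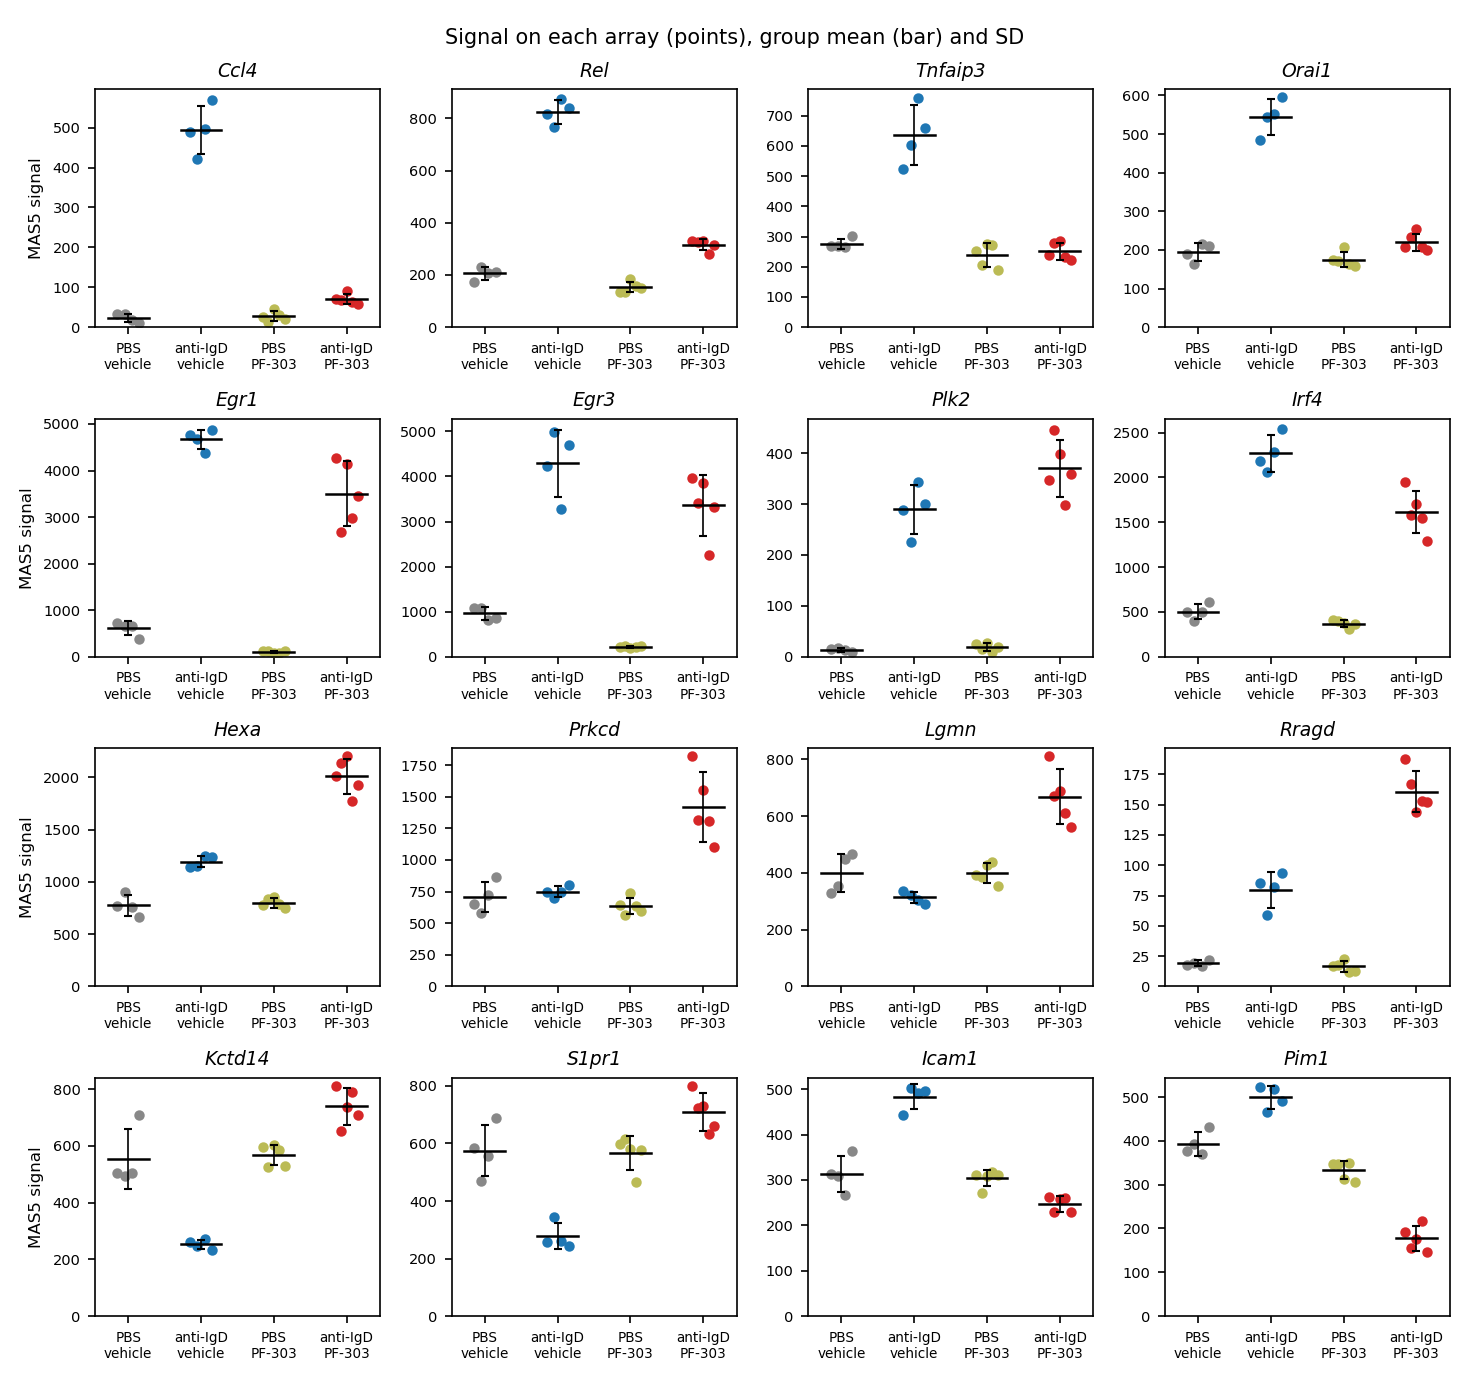
MAS5 signal of 16 genes on each array (points), with group means (bars) and standard deviations, for PBS and anti-IgD with vehicle (n = 4 each) and with PF-303 (n = 5 each). Rows show smaller, level-dependent or like, larger, and opposite responses, except that Lgmn in the row of larger responses was opposite.

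In 39 genes the antibody moved the level in opposite directions, 33 from a fall to a rise and 6 from a rise to a fall. Of these 39, 17 kept this class after the shift to one median. With the array letter as a block 15 kept it, and without the 6 high spike-in arrays 20. S1pr1, the sphingosine 1-phosphate receptor that lets lymphocytes leave tissue, had signals of 584, 471, 557 and 688 with PBS and 259, 344, 261 and 245 with anti-IgD in vehicle-treated mice. They were 599.9, 617, 582, 466 and 577 with PBS and 799.8, 722, 729, 633 and 662 with anti-IgD in PF-303-treated mice. With vehicle the stimulated arrays lay below all PBS arrays, and with PF-303 above all PBS arrays of that treatment. The responses were -1.01 ± 0.12 and 0.31 ± 0.10 (interaction 1.32 ± 0.15, adjusted p = 1.9e-05). Kctd14, a BTB-domain gene, had signals of 503, 494, 506 and 710.1 with PBS and 261, 246, 271 and 233 with anti-IgD in vehicle-treated mice. They were 597, 526, 602, 584 and 530.5 with PBS and 811, 652, 736, 791 and 707 with anti-IgD in PF-303-treated mice. It moved as S1pr1 did, by -1.07 ± 0.10 and 0.37 ± 0.09. Ciita, the master regulator of MHC class II genes, had signals of 639, 611, 779 and 1040.2 with PBS and 579, 494, 556 and 530.1 with anti-IgD in vehicle-treated mice. They were 643, 589, 657, 591 and 639 with PBS and 1055, 855, 839, 950.0 and 774 with anti-IgD in PF-303-treated mice. The responses were -0.47 ± 0.12 and 0.50 ± 0.11 (interaction 0.97 ± 0.17, adjusted p = 9.6e-04). With vehicle the stimulated arrays lay below all PBS arrays, and with PF-303 above the PBS arrays of that treatment. The MHC class II genes themselves had medians of -0.47 and 0.14 over 13 tested but wide errors, as for Cd74 (interaction 0.70 ± 0.38), and Ciita was the 1 gene called.

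Lgmn, the lysosomal protease legumain gene, had signals of 328, 354, 449 and 466 with PBS and 335, 322, 306 and 292 with anti-IgD in vehicle-treated mice. They were 393, 384, 429, 438 and 355 with PBS and 813, 671, 689, 610.2 and 560.1 with anti-IgD in PF-303-treated mice. With PF-303 its stimulated arrays lay above all others. The responses were -0.32 ± 0.11 and 0.71 ± 0.10, and Psap, the saposin precursor, had -0.46 with vehicle and 0.27 with PF-303. The interaction of Psap was not called with the array letter as a block. Sema7a, Slamf1, Acot13, Hs3st1 and Dtx1 were further falls that became rises, with interactions from 0.68 to 0.99.

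Of the 6 genes that turned from a rise to a fall, Pim1, a survival kinase gene, had signals of 377, 393, 369 and 432 with PBS and 522, 467, 517 and 490.3 with anti-IgD in vehicle-treated mice. They were 347, 348, 313, 350.0 and 307 with PBS and 193, 156, 177, 217 and 146 with anti-IgD in PF-303-treated mice. All 4 groups were apart, the stimulated arrays being highest with vehicle and lowest with PF-303. The responses were 0.34 ± 0.10 and -0.86 ± 0.09 (interaction -1.19 ± 0.13, adjusted p = 7.6e-06). Icam1, an adhesion molecule and NF-kB target, had signals of 314, 308, 268 and 364 with PBS and 444, 503, 492 and 497 with anti-IgD in vehicle-treated mice. They were 310.3, 272, 308, 317 and 311 with PBS and 262, 229, 258, 261 and 229 with anti-IgD in PF-303-treated mice. Here too the stimulated arrays were above all PBS arrays with vehicle and below all with PF-303, with responses of 0.61 ± 0.09 and -0.28 ± 0.08 (interaction -0.89 ± 0.11, adjusted p = 5.3e-05). Gadd45b, another NF-kB target that blunts JNK signalling, had 0.35 with vehicle and -0.60 with PF-303, and Hivep2, Grap and Inf2 completed the group (-0.64, -0.59 and -0.55 for the interaction). Pim1, Ciita, Lgmn, Psap, Sema7a, Slamf1, Dtx1, Hivep2, Grap and Inf2 were named after their values were seen. The PF-303 effect in PBS-treated mice passed in 0 of the 39 (limma, 3 higher and 8 lower at an unadjusted p under 0.05). Over all genes it passed as lower in 0.63% and as higher in 0.063%, so this count does not set the 39 apart.

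Some groups gave little to call. Of 44 cytosolic ribosomal proteins 1 was called for the interaction, Rps25, which had 0.74 with vehicle and 0.32 with PF-303, although the list had medians of -0.38 and 0.13. Single genes had large errors, as for Rps2 (1.01 ± 0.45), and after quantile normalization the median interaction was -0.02 in place of 0.50. Of 76 oxidative phosphorylation subunits 1 was higher, of 37 proteasome subunits 2 each were higher and lower, and of 31 DNA replication and mitosis genes 1 was lower. Of 22 genes of the G1 phase 2 were higher, Cdkn1b and the pocket protein gene Rbl2 (-1.39 with vehicle and -0.68 with PF-303, with an adjusted p of 0.052 without replicate 5 of anti-IgD with vehicle), and Cdk4 rose alike (0.83 with vehicle and 0.86 with PF-303). In the BCL2 family 1 of 14 was higher, Bak1, lost in 10 of the 18 fits that leave out 1 array (adjusted p up to 0.088), and 2 lower, Bcl2l1 and Bcl2l11.

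The classes were also read on the scale of signals, as a description. Genes were sorted by their calls on the log2 scale in these same arrays. A shared sign is therefore largely set in advance, above all for opposite responses. The difference of the rises had the sign of the interaction in 324 of 324 smaller rises, 598 of 601 smaller falls, 39 of 39 opposite responses and 96 of 99 larger rises, the exceptions among the last being Egr1, Egr3 and Lrmp. The call of Lrmp was lost in 8 of the 18 fits that leave out 1 array (adjusted p up to 0.074). By level, the median interaction was between 0.02 and 0.14 in 5 equal bins of genes ordered by mean signal, and calls went from 10 higher and 8 lower in the dimmest bin to 262 and 110 in the brightest.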

How the data were processed

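RNA of CD23+ splenic B cells was hybridised to 18 one-colour arrays. The authors deposited MAS5 signals, a linear intensity per probe set, per the submitters' processing notes; the MAS5 version and settings are not given in the sources used here. Probe sets with 1 gene symbol (34945 of 45101) and a signal above 15.2, the median of all values, on at least 4 arrays were kept, and the probe set with the highest mean stood for its gene. From the deposited intensity, log2(signal + 16) was fitted with limma 3.58.1 in R 4.3.3 (lmFit, eBayes with trend, 1 mean per group, all 18 arrays), two-sided with Benjamini-Hochberg adjustment over 11104 genes. The fit was tested on simulated data with independent noise for each gene and array. That simulation held no effect shared between arrays, so it does not bear on the shift or the array letter. The number of arrays limits the precision.

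Genes were named by rule: the 12 lowest and 12 highest called interactions, the 6 with the largest response in the like, larger and opposite classes, up to 4 members of each list with the largest and up to 2 with the smallest interaction, and a fixed list. Those 2 were taken among members called in both responses, so they are the closest to alike and not typical of their list. Other genes, and the lists of lysosomal hydrolases, nutrient sensing and the vacuolar ATPase, were chosen after their values were seen. The comparisons and lists were chosen with earlier results of these data known. Replicate numbers are shared across groups, but deviations from group means of same-numbered arrays correlated at -0.16 to 0.22 over 24 pairs (median -0.002, 7 over 0.1), so no pairing was used. The responses share arrays with each other and with the interaction. Alternatives changed the offset, filter, normalization, probe set rule, blocks, weights, trend, scale and arrays.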

Additional observations from a re-analysis of the deposited data

Results flagged for a closer look

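Among 144 groups of arrays examined over 36 genes, 7 held an array whose gap to its nearest neighbour was large against the range of the group, and chance alone marks about 1 in 20 groups. In PBS with vehicle, replicate 4 stood high for Tnfaip3 at a signal of 301.27 and for Kctd14 at 710.13, and low for Hivep3 at 137.78. In the same group replicate 2 was low for Naglu at 84.416. In anti-IgD with PF-303, replicate 4 stood apart for Cd69 at 373.15. In PBS with PF-303, replicate 4 was low for S1pr1 at 466.43 and replicate 2 was low for Icam1 at 272.1.

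The response to anti-IgD differed between the drug groups, by the test of the difference itself, in 1081 genes, and in 39 of them the responses were called in opposite directions.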

How the results depend on the processing

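With each replicate left out in turn, the interaction was called in 783 to 1155 genes (536 to 782 higher, 247 to 373 lower), a smaller response in 644 to 991, a like one in 1457 to 1664, a larger one in 81 to 129 and an opposite one in 32 to 46. The vehicle response ranged from 4842 to 5386 genes, that with PF-303 from 3374 to 3937, and the PF-303 effect from 42 to 106 in PBS-treated and 2845 to 3561 in stimulated mice. That effect in PBS-treated mice, 77 genes, came to 51 without replicate 1 and 42 without replicate 4 of PBS with PF-303, and 49 without replicate 1 of PBS with vehicle.

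Arrays shifted to one median gave 344 higher and 681 lower genes. With the letter of the array code as a block, 292 genes were called (189 higher, 103 lower), with 241 smaller, 743 like, 33 larger and 18 opposite responses, and 42 and 1721 genes for the PF-303 effect in PBS-treated and stimulated mice. Without the 6 high spike-in arrays the counts were 716 (212 lower), 613 smaller, and 43 for the effect in PBS-treated mice, and with array weights that effect was called in 183. The causes were not tested. An interval within a 2-fold difference gave 2448 like responses. With the replicate number as a block, 978 genes were called. On the linear signal Egr1, Egr3 and Lrmp reversed, to -658.5, -187.5 and -147.3 (adjusted p = 0.27, 0.84 and 0.31). A further 26 named genes lost their call on that scale, and 20 gained one. The 280 named genes include many that were not called for the interaction at first. Calls were lost in 79 of the named genes with the array letter as a block and in 43 without the 6 high spike-in arrays. The share of calls lost is therefore larger than these counts out of 280.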
